A study of Mus musculus with 8 samples.

Results

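The Hox clusters carry a small set of miRNA genes between and within their homeobox genes, and the mature forms of these miRNAs were measured here in C3H10T1/2 cells, a mouse mesenchymal line derived from embryo cells. The members were taken by name, as both arms of miR-10a, miR-10b, miR-196a, miR-196b and miR-615 wherever the array carried a probe for them. This gave 8 of the 611 mouse miRNAs on the array, of 650 miRNAs in all. Of these, 5 are the arms named in most accounts of the family, namely mmu-miR-10a-5p, mmu-miR-10b-5p, mmu-miR-196a-5p, mmu-miR-196b-5p and mmu-miR-615-3p (the mouse prefix is left out from here on), and the other 3 are the opposite arms miR-10a-3p, miR-10b-3p and miR-615-5p.

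The cells of the WT group were incubated with 750 nM wild type IhhN, the signaling fragment of Indian hedgehog, for 48 h. Those of the MT group received 750 nM of the E95K mutant protein, which carries a change known from brachydactyly, and those of the control group were kept for 48 h with no protein according to their induction label, although another of their labels repeats the 750 nM of the induced groups. The proteins were recombinant, added to the medium, and all groups shared the same cell line. Each group had 2 RNA samples, and both WT samples were hybridised to 2 arrays each, so that 8 arrays of 1 slide were read. Nothing in the labels ties a replicate to a culture of its own, so p-values measure the spread between these samples. C3H10T1/2 is a single line, and its RNA was taken in bulk, so that fewer expressing cells and less RNA per cell cannot be told apart.

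Hox genes encode transcription factors whose order along the chromosome follows the order of their use along the body axis and in the limb. Their embedded miRNAs act after transcription by pairing the seed, bases 2 to 8 counted from the 5′ end, with messenger RNAs, among which Hox messages are well known targets. The miR-196 family is known for directing cleavage of the Hoxb8 message, and the miR-10 family is one of the most ancient miRNA families in animals.

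All 8 members were found among the mature mouse miRNAs of RefSeq (GRCm38.p6). Their sequences are shown because they hold 2 pairs that differ at a single base. The probe sequences were not used here, so how far a probe of one member of a pair also reads the other was not tested. The seed is in capitals:
miR-10a-5p: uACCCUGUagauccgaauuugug
miR-10b-5p: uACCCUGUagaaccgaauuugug
miR-196a-5p: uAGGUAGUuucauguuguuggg
miR-196b-5p: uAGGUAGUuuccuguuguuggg
miR-615-3p: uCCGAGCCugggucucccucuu
miR-10a-3p: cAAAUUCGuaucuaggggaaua
miR-10b-3p: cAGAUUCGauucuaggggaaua
miR-615-5p: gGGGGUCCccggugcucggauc

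By seed, the members fell into a miR-10 group (ACCCUGU, in miR-10a-5p and miR-10b-5p), a miR-196 group (AGGUAGU, in miR-196a-5p and miR-196b-5p) and 4 members with a seed of their own. Of the 1679 mature mouse miRNAs in the RefSeq table, 2 had the ACCCUGU seed and 2 the AGGUAGU seed, which are the members themselves. Counted from the 5′ end, miR-10b-5p differs from miR-10a-5p by U12A, and miR-196b-5p differs from miR-196a-5p by A12C. Both differences lie outside the seed.

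The positions below are those of RefSeq in GRCm38.p6, while the scanner files name mm9, and the neighbours are the nearest protein-coding genes of the same table. It gives gene spans only, so exon and intron were not assigned. The miR-10a-5p sequence lies at chr11:96317186-96317208 (+), within the span of Hoxb3 and between Hoxb5 and Hoxb4, and that of miR-10b-5p at chr2:74726074-74726096 (+), within the spans of Hoxd3 and Hoxd4. The miR-196a-5p sequence is encoded by 2 loci. Mir196a-1 places it at chr11:96265187-96265208 (+), between Hoxb13 and Hoxb9, and Mir196a-2 at chr15:102973365-102973386 (+), between Hoxc10 and Hoxc9. The miR-196b-5p sequence lies at chr6:52230129-52230150 (-), between Hoxa9 and Hoxa10, and that of miR-615-3p at chr15:103014969-103014990 (+), within the span of Hoxc5. The Hoxa, Hoxb, Hoxc and Hoxd clusters are therefore all represented, and a signal for miR-196a-5p cannot be assigned to either of its loci.

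Most of the members gave no signal that passed the rule for detection used here. The scanner software marks single spots as well above background. An array counted as detecting a miRNA if at least 1 of its probes had this mark on more than 50% of its spots, outlier spots left out. By this rule, miR-196b-5p was detected on 3 of the 8 arrays and the other 7 members on none. None of the 8 was detected on all arrays, against 103 of the 611 mouse miRNAs (16.9%), while 449 of the 611 (73.5%) were detected on no array. The 3 arrays that detected miR-196b-5p were both control arrays and the second array of WT replicate 2. With outlier spots kept only the 2 control arrays did, so by this rule its detection in an induced group rests on that choice. The scanner software's own call, given below, also named induced arrays.

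Marker miRNAs of cell types were read as a description of the cells. Their lists were chosen with earlier results of these data known, so the counts are no independent test of identity. Of 6 miRNAs known from mesenchymal cells, 5 were detected on all 8 arrays and miR-145-5p on 7, whereas 19 of 19 markers of blood, epithelium, neurons, muscle, liver and embryonic stem cells were detected on no array. Among those 19, the highest signal was 26.8, for miR-223-3p, above the highest of miR-196b-5p at 22.5. Arrays differed in how dim a signal they could call. The lowest signal of a detected probe ran from 14.0 to 38.4 arbitrary units, and it was highest on the first array of WT replicate 1 (38.4) and on MT replicate 1 (32.5), where the negative control spots also spread most, with SDs of 6.63 and 5.61 against 2.91 to 3.76 elsewhere. Detection was called from the marks on single spots, and on some arrays an undetected probe had a higher mean than the lowest detected one, as on MT replicate 1 with 58.7 against 32.5. No member was shown to be absent.

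The single spots also set miR-196b-5p apart from the other 7 members, among which they gave no clear order. Of 147 spots of miR-196b-5p that were no outliers, 28 (19.0%) were well above background. Over the other 7 members this held for 13 of 1087 spots (1.196%), beside 274 of 67962 spots (0.403%) of the other mouse miRNAs detected on no array and 1 of 3315 negative control spots (0.0302%). The 13 spots were scattered over miR-196a-5p (4), miR-615-3p (4), miR-10a-3p (2), miR-10b-5p (2) and miR-10a-5p (1), and all of them lay on WT or MT arrays, none on a control array. Most were on the arrays of WT replicate 1 and MT replicate 1, among which are those whose negative control spots spread most. The control group also had fewer arrays, and the same split by group was not made for other miRNAs. Only miR-10b-3p and miR-615-5p had no spot well above background. A laxer mark of the same software, for a positive and significant signal, was on 77.1% of miR-196a-5p spots and 68.8% of miR-10a-5p spots. It was on 27.9% of spots over the 7 members, on 14.3% of those of the other mouse miRNAs detected on no array and on 50.9% of negative control spots.

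**Figure D1:**
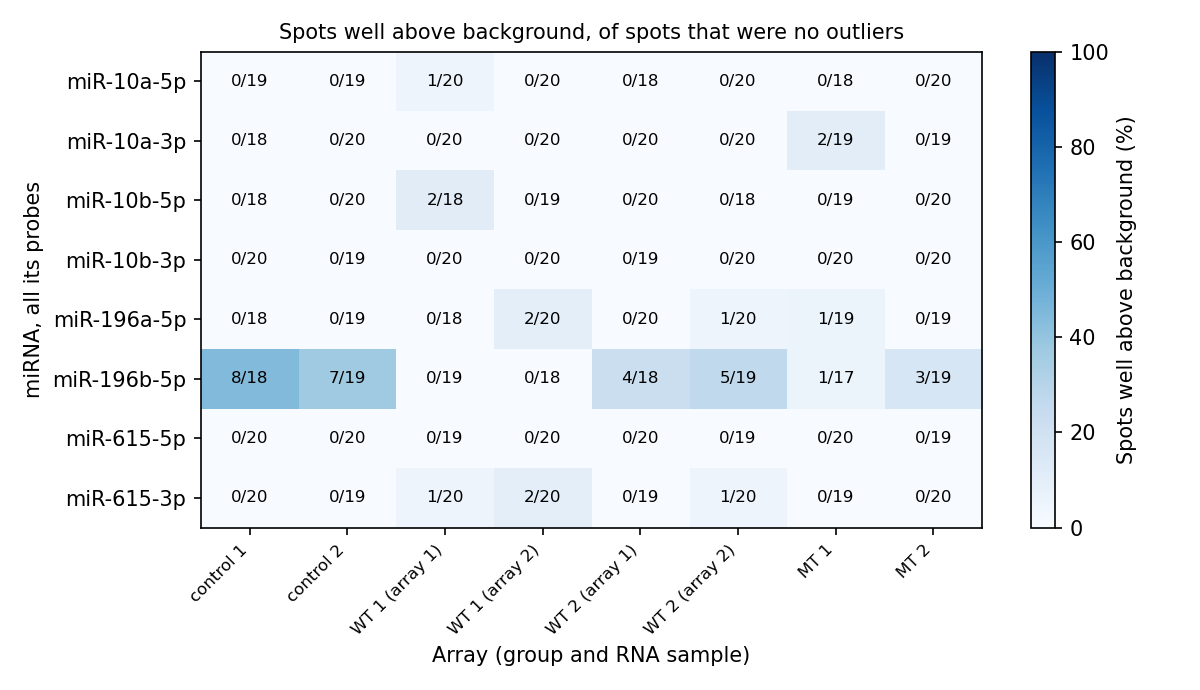
Spots well above background for each Hox cluster miRNA (rows) on each array (columns), as the number of spots over the number that were no outliers, with the colour giving the percentage. miR-196b-5p filled 8 of 18 and 7 of 19 spots on the control arrays, and no other member passed 2 spots on any array.

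For miR-196b-5p the count of spots differed between groups. In the control group, 15 of 37 spots (40.5%) were well above background, in the WT group 9 of 74 (12.2%) and in the MT group 4 of 36 (11.1%). All 9 WT spots came from the 2 arrays of replicate 2, and 0 of the 37 spots of replicate 1 were marked. Spots of an array share its RNA and its background, and the mark depends on that array's own background, so these shares are a description and were not tested.

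miR-196b-5p was read by 2 probes with 10 spots each, and they disagreed. The probe that was brighter over all arrays accounted for each of the 3 detections, and the other was detected nowhere, with a signal from 6.18 to 14.0. On the brighter probe, the mean signal was 22.5 and 19.8 in the control samples, 17.7 and 16.5 in the WT samples and 11.3 and 13.0 in the MT samples. Before any scaling the control group was thus highest at 21.1 ± 1.87 (SD, n = 2), followed by the WT group at 17.1 ± 0.82 (SD, n = 2) and the MT group at 12.2 ± 1.2 (SD, n = 2). The share of all tested miRNAs whose 3 groups lie apart was not counted. The other probe put the groups in another order, with control (12.1 ± 0.94) above MT (10.6 ± 4.91) and WT (8.03 ± 1.52; SD, n = 2 each).

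The signal of this probe sat near the lowest detected signal on 5 of the 8 arrays and further below it on the other 3. On the second array of WT replicate 2 its value of 14.4 was the lowest of all detected probes, and on the first array of that replicate its 18.6 was above the lowest detected signal of 18.4, yet only 4 of 9 spots were marked. On MT replicate 2 the signal of 13.0 lay under the lowest detected signal of 14.0, with 3 of 10 spots marked. On both arrays of WT replicate 1, the values of 20.01 and 15.3 lay under lowest detected signals of 38.4 and 22.3, and on MT replicate 1 the 11.3 lay under 32.5, so that an undetected value could be as high as a detected one: the 20.01 of WT replicate 1 exceeded the 19.8 called detected on control replicate 2.

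**Figure D2:**
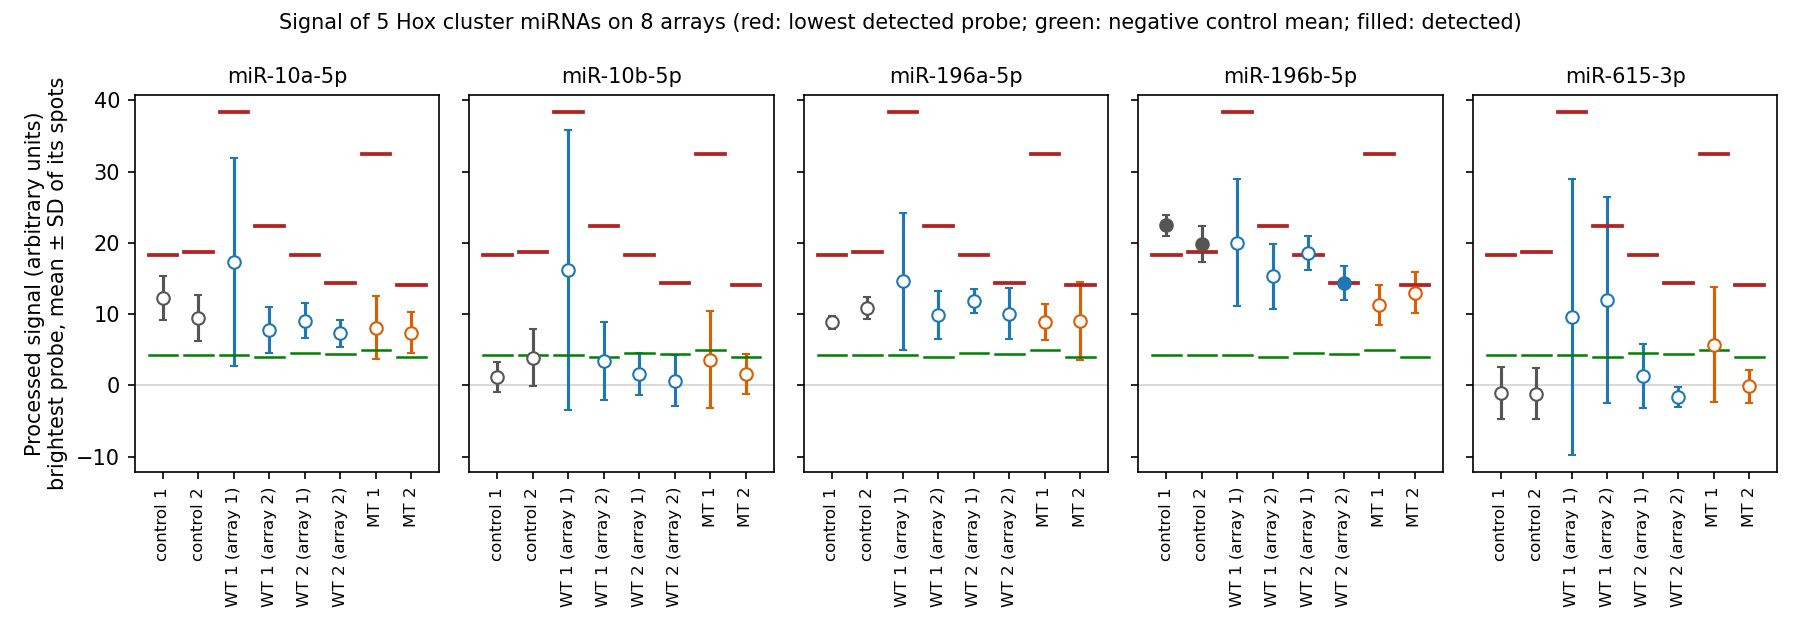
Processed signal (arbitrary units, linear axis) of the brightest probe of 5 Hox cluster miRNAs on the 8 arrays, as mean ± SD over its spots. Filled points are detected, red bars mark the lowest detected probe of the array and green bars the mean of its negative control spots. miR-196b-5p at 22.5 and 19.8 stood above the red bars on both control arrays, and miR-10b-5p and miR-615-3p lay near the green bars or 0 on most arrays.

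The place of the control group changed once arrays were set on a common scale. The control arrays were brighter in general: over the 174 probes that every array detected, the 75th percentile of the signal was 785 and 606 on them, against 432 to 565 on the WT and MT arrays. After this percentile had been brought to 1000 on each array, the log2 level of miR-196b-5p with no floor was 4.84 and 5.03 in the control samples, 5.19 and 5.03 in the WT samples and 4.68 and 4.91 in the MT samples. The control samples then overlapped the MT samples in range and met the WT samples at 5.03. The order became WT (5.11 ± 0.11, SD, n = 2), control (4.93 ± 0.14, SD, n = 2) and MT (4.79 ± 0.17, SD, n = 2), and neighbours in it were separated by about the spread between replicates. The WT samples stayed above both MT samples, as before scaling. The other probe again differed, with MT (4.51 ± 0.67, SD, n = 2) above control (4.14 ± 0.15, SD, n = 2) and WT (3.99 ± 0.20, SD, n = 2), so the direction between WT and MT depends on the probe.

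**Figure D3:**
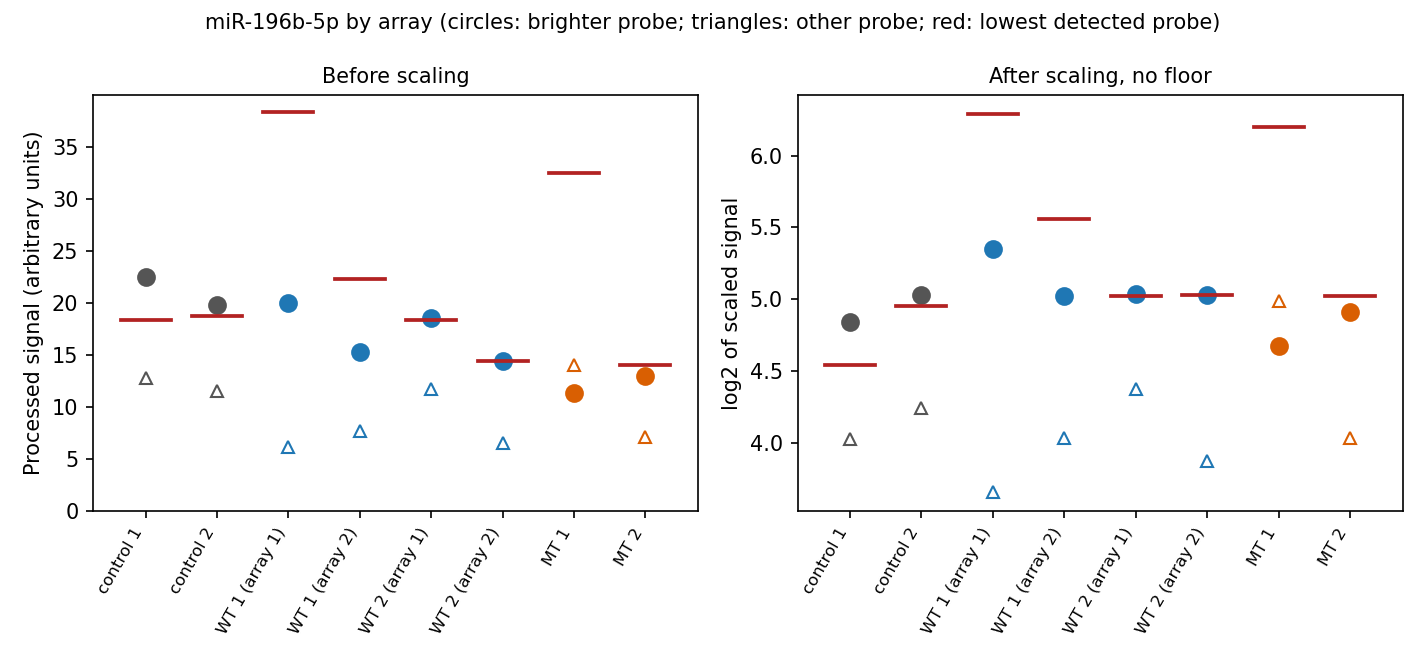
miR-196b-5p on each array, before scaling as processed signal (left, linear axis) and after scaling on the log2 scale with no floor (right). Circles are the brighter probe, triangles the other probe and red bars the lowest detected probe. The control circles at 22.5 and 19.8 are above the WT and MT sample means on the left, and at 4.84 and 5.03 lie among the other groups on the right.

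The question of whether induction changed these miRNAs could be put to a test for 1 member alone. A miRNA was tested if some group had detected it on each of its arrays. Of the 142 mouse miRNAs that met this, miR-196b-5p was the single Hox cluster member, and it passed that filter only through the control group. Its comparisons with that group are therefore given as values and support no statement that it did not change. On the floored scale, where a level under log2 5.02 is set to 5.02, it differed by 0.08 in WT against control. In MT against control the difference was -0.0034, a value set by the floor, at which both MT samples and 1 control sample lay. That control sample, replicate 1, was a detected one. Its level of 4.84 lay above the lowest detected level of its array, 4.55, so a floored level need not be undetected. In WT against MT it was 0.09 (SE 0.15, 95% interval -0.26 to 0.43, adjusted p = 0.990, limma with Benjamini-Hochberg adjustment). With both MT samples at the floor, this SE and interval do not measure the spread of the MT samples. With 0.5 times the floor, the differences were 0.17 in WT against control, -0.14 in MT against control and 0.32 in WT against MT, the last with a limma adjusted p of 0.983.

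One row of the slide held the MT arrays on its left and the control arrays on its right, while the WT arrays filled the other row, so that side and group were separable only through the WT arrays. Of these, the arrays of replicate 1 lay on the left and those of replicate 2 on the right. Side was thus not separable from RNA sample, and the term rests on the difference between the 2 WT samples. With side as a term, the miR-196b-5p difference was 0.0048 in WT against control, -0.16 in MT against control and 0.16 in WT against MT.

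No member was called, with 0 of the 1 tested in each comparison, also at an unadjusted p under 0.05. That count supports no lack of change, since the floor set several miR-196b-5p values and only the control group brought it past the filter. Of all 142 miRNAs, limma called 0 in each comparison at an adjusted p under 0.05 (0%). At an unadjusted p under 0.05 it called 40 (28.2%) in WT against control, 56 (39.4%) in MT against control and 0 (0%) in WT against MT. Both comparisons against control share the control samples. The median difference over the 142 was 0.11 in WT against control and 0.13 in MT against control on the log2 scale, so that miR-196b-5p was near it in the first and below it in the second. No fold against the MT group or against the WT group is given, because the limits of their arrays, at log2 means of 5.61 and 5.48, lay above the control level of 4.93.

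Detection on both control arrays, with gaps in the induced groups, was no rare pattern. Both control arrays detected 142 of the 611 mouse miRNAs (23.2%), miR-196b-5p among them. Of those 142, 38 (26.8%) were missed by at least 1 WT array and 36 (25.4%) by at least 1 MT array. No WT array detected 4 of them (2.82%), and no MT array detected 8 (5.63%), of which miR-196b-5p was 1.

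The remaining arms of the miR-196 and miR-10 groups stayed below the limit in every sample. miR-196a-5p, which differs from miR-196b-5p at base 12 alone, had a mean signal on its brightest probe of 8.85 and 10.8 in the control samples, 12.2 and 10.9 in the WT samples and 8.94 and 8.96 in the MT samples. These lie above the means of the negative control spots, which were 3.92 to 4.94 on the 8 arrays, and under the lowest detected signal of each array. On this probe the WT samples were the highest, but WT replicate 2 exceeded control replicate 2 only as 10.9 does 10.8. The SD over the spots of this probe ran from 0.93 to 9.63. On its scaled log2 values with no floor, the control samples were the lowest, at 3.49 and 4.16. MT lay at 4.34 and 4.38 and WT at 4.64 and 4.45. The scaled values lie below the floor, so they carry no test. The 4 probes of miR-196a-5p disagreed on the order. On another probe the control samples gave 12.5 and 9.59, above every WT array (5.91 to 8.13), and the MT samples 15.9 and 7.02. Yet another lay under the negative control mean on MT replicate 2, at 0.085 against 3.92.

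On its brightest probe, miR-10a-5p gave 12.3 and 9.40 in the control samples and 12.6 and 8.18 in the WT samples. The MT samples gave 8.11 and 7.36. The 2 arrays of WT replicate 1 gave 17.4 and 7.75, with an SD over spots of 14.6 on the first, so the higher WT value rests on that array. After scaling, with no floor, the log2 values were 3.97 and 3.95 in the control samples, 4.59 and 4.02 in the WT samples and 4.197 and 4.09 in the MT samples, so that the control samples went from among the highest to the lowest. miR-10b-5p, its neighbour in sequence by U12A, gave 0.64 to 3.90 on its brightest probe on 7 arrays and 16.2 on the first array of WT replicate 1, where the SD over 10 spots was 19.6.

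miR-615-3p, the product of the Hoxc5 region, showed the same kind of scatter. Its brightest probe gave -1.07 and -1.17 in the control samples, 10.8 and -0.18 in the WT samples and 5.67 and -0.14 in the MT samples. Both arrays of WT replicate 1 were high, at 9.59 and 11.99, with 1 and 2 of 5 spots well above background and SDs of 19.4 and 14.5, whereas WT replicate 2 gave 1.32 and -1.67. A difference of this kind between 2 samples of 1 group leaves no difference between groups to report.

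Among the opposite arms, miR-10b-3p ranged from -4.40 to 2.65 and miR-615-5p from -7.03 to 4.31 on their brightest probes, around or below 0 after background subtraction. miR-10a-3p ranged from -6.22 to 13.7, and the 13.7 was the value of MT replicate 1, with 2 of 5 spots marked. The other 5 RNA samples gave -3.85 to -6.22 for it. These arms were at the floor in all 6 RNA samples, so they have no order. The opposite arm of miR-196a, which the array names miR-196a-2-3p and which the naming rule does not take in, gave -6.74 to -3.30 and was detected on no array.

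The scanner software's own call for a miRNA was more permissive. It called miR-196b-5p detected on 6 arrays. These were both control arrays, the second array of WT replicate 1, both arrays of WT replicate 2 and MT replicate 2. It called miR-196a-5p detected on 3 (control replicate 1 and both arrays of WT replicate 2), miR-10a-5p on 1 (control replicate 1) and the other 5 members on none. Its summed signal for miR-196b-5p was unstable: the 2 arrays of WT replicate 2, which carry the same RNA, gave 20.5 and 181, and the 2 control samples 23.4 and 186, while the mean signals on the brighter probe were 18.6 and 14.4, and 22.5 and 19.8. It wrote 0.1 where it called nothing. This summed signal was therefore used only as an alternative.

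Relatives of the miR-10 group outside the Hox clusters were detected throughout. The miR-99 and miR-100 family shares much of the miR-10 body but not its seed, as RefSeq (GRCm38.p6) gives it:
miR-99a-5p: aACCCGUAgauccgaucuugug
miR-99b-5p: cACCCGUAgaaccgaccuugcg
miR-100-5p: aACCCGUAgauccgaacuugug
The longest run that miR-10a-5p shares with miR-100-5p is GUAGAUCCGAA, of 11 bases, and with miR-99a-5p it is 10 bases. miR-10b-5p shares 10 bases, GUAGAACCGA, with miR-99b-5p. All 3 relatives were detected on 8 of 8 arrays, with signals of 650 to 1225 for miR-99a-5p, 312 to 412 for miR-99b-5p and 323 to 557 for miR-100-5p. These are readings of their own probes, and what they mean for the miR-10 probes was not tested.

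Of these 3 relatives, 0 passed the adjusted threshold in any comparison. miR-99b-5p had log2 levels of 9.04 and 9.01 in the control samples, 9.70 and 9.44 in the WT samples and 9.71 and 9.69 in the MT samples. Both induced groups lay above the control group, and how many of the 142 miRNAs showed the same was not counted. The difference was 0.55 (SE 0.16, limma adjusted p = 0.139) in WT against control and 0.68 (SE 0.16, limma adjusted p = 0.061) in MT against control, where the first passed the threshold under 1 alternative setting and the second under 3. For miR-99a-5p the differences were 0.15 and -0.07, and for miR-100-5p 0.22 and 0.16, with SEs of 0.14 to 0.16.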

How the data were processed

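The authors deposited, for each of the 8 one-colour Agilent miRNA arrays, the scanner output, which holds a background-subtracted intensity per spot. Per the file headers it was made by Feature Extraction 10.7.1.1 with build mm9, while the submitters' processing notes name version 9.1. A deposited table of the whole series holds the background-subtracted intensity of the same spots, without normalization between arrays, and was used as a check only. How the authors normalized them is not stated in those sources.

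Control and outlier spots were left out and the spots of a probe averaged. Arrays were set to a common 75th percentile over the 174 probes that every array detected, a floor was set at log2 5.02 (the median over arrays of the lowest detected signal), and log2 was taken. The probe with the highest mean stood for a miRNA. The arrays of a WT sample were averaged. All 3 groups were fitted with limma 3.58.1 in R 4.3.3 (lmFit, eBayes; Benjamini-Hochberg over 142 miRNAs, threshold 0.05, 3 residual degrees of freedom). Figures were drawn with matplotlib. Named were all members, detected or not, and miR-99a-5p, miR-99b-5p and miR-100-5p. The 2 miRNAs most like each member detected on all arrays were to be named too, but no member was. The fit was tested on simulated data. Members and lists were chosen with earlier results of these data known. The number of arrays limits the precision.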

Additional observations from a re-analysis of the deposited data

How the results depend on the processing

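Under every alternative that left a member to test, 0 Hox cluster miRNAs passed the adjusted threshold in each of the 3 comparisons. All of these but the unfiltered one tested miR-196b-5p alone, so this count supports no lack of change. The count of members detected on all arrays also stayed at 0. With the scanner software's call, 3 members in place of 1 were detected on at least 1 array, and with outlier spots kept miR-196b-5p was detected on 2 arrays in place of 3. When only miRNAs detected on all 8 arrays were tested, no member was left. Unfiltered, 0 of 8 members had an unadjusted p under 0.05 (limma) in each comparison. Over all 611 mouse miRNAs the counts were 33 in WT against control, 41 in MT against control and 7 in WT against MT. The floor fixed the values of most members, so their count is no test of change.

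The sign of the small miR-196b-5p difference depended on the setting. In WT against control (0.08 on the log2 scale) it was -0.041 with the percentile over all mouse probes, -0.072 with quantile normalization and -0.0019 with the second WT arrays alone. In MT against control (-0.0034) it was 0.00070 with normexp and 0.18 with outlier spots kept, and WT against MT (0.09) became -0.093 with outlier spots kept. Leaving out 1 sample gave 0.0048 to 0.16 in WT against control, -0.0069 to 0 in MT against control and 0.0083 to 0.16 in WT against MT. The largest values in these comparisons were 0.20 in WT against control with the summed gene signal, 0.32 in WT against MT with 0.5 times the floor and, with outlier spots kept, the 0.18 in MT against control, which was -0.14 with 0.5 times the floor and -0.16 with side of the slide as a term. Since the floor sets several of these values, none of them supports a lack of change. The percentile over all mouse probes moved the median of the 142 miRNAs to -0.19 in WT against control and -0.51 in MT against control.

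Deviations of same-numbered samples had r = 0.02 (WT and MT), 0.39 (control and WT) and -0.46 (control and MT). With 2 samples per group this cannot settle pairing. With a replicate block the miR-196b-5p differences were 0.08, -0.0034 and 0.09, and 0 members passed.

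Over all miRNAs tested, the 0 calls of WT against control became 22 with normexp, 3 with the summed gene signal and 1 with 0.5 times the floor. Those of MT against control became 40, 3 and 1 under these settings, 29 with miRNAs detected on all 8 arrays, 11 with all arrays fitted singly and RNA samples as random blocks, and 18 without MT replicate 2, where WT against MT had 1. miR-99b-5p passed in WT against control under normexp and in MT against control under normexp, the filter on all 8 arrays and the random block. The cause of these shifts was not tested. Signal over background limits what can be said of the members, 7 of 8 of which were detected on no array.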
